A study of Homo sapiens with 6 samples.

Results

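The mRNAs of 8 UPF and SMG decay factors, UPF1, UPF2, UPF3A, UPF3B, SMG1, SMG5, SMG6 and PNRC2, were followed in RNA that came down with tagged Staufen1 (Stau1) and in control immunoprecipitations (IPs). They were chosen by gene symbol, and each symbol stood on a single row of the array table, so that 8 of 37879 targets were members. RNA was measured on 6 Illumina BeadChips, 3 for control IPs and 3 for Stau1 IPs. All arrays came from HEK293T, an established human embryonic kidney cell line, held in prometaphase with nocodazole, a microtubule poison, with the labels giving 50 ng/ml for 15 h, and the study's methods a longer time. The control IPs were made from cells given the empty vector and the Stau1 IPs from cells given a plasmid for Stau155-FLAG, and the anti-FLAG antibody was used on both. The protein was therefore introduced by transfection and carried a tag, and the endogenous Stau1 was not pulled down through the antibody. The labels number the replicates but do not say whether they were separate cultures, so that p-values measure the spread between these arrays.

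In nonsense-mediated decay, an mRNA whose translation stops too early is recognized by UPF1, an RNA helicase. UPF2 and the paralogs UPF3A and UPF3B connect UPF1 to the exon junction complex, the kinase SMG1 phosphorylates UPF1, and SMG5 and SMG6 bind the phosphorylated form. SMG6 cuts the mRNA itself, while PNRC2 links UPF1 to the decapping enzymes. In Staufen-mediated decay, Stau1 bound to a double-stranded stem in an mRNA recruits UPF1. The comparison made here is of another kind, since it asks how much of the mRNAs that encode these factors came down with Stau1.

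The factors fell into 2 groups by sign. UPF1, SMG5 and SMG6 mRNAs gave a higher mean signal in the Stau1 IPs, and UPF2, UPF3A, UPF3B, SMG1 and PNRC2 mRNAs a lower one. The largest difference was that of UPF2, 2.34-fold lower in Stau1 IPs, followed by UPF3B, 1.99-fold lower, and the largest in the other direction was that of SMG5, 1.61-fold higher. With limma and Benjamini-Hochberg adjustment over all targets, 0 of the 8 members passed, and 0 of all 37879 targets did (0% called). At an unadjusted p under 0.05, 5 of the 8 members were counted, against 9.6% of all targets. Most targets of the array gave no signal above background, and among the 9884 detected on all 6 arrays the share was 22.4%, with 3 of the 5 members in that set. UPF1 was the member counted as higher (4.44% of all targets), and UPF2, UPF3A, UPF3B and PNRC2 were those counted as lower (5.16% of all targets).

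2 arrays stood apart from their labels. Over 9884 targets detected on all 6 arrays, control IP 2 had a Pearson correlation of 0.982 and 0.983 with Stau1 IP 1 and 3, and of 0.975 and 0.980 with control IP 1 and 3. Stau1 IP 2 correlated at 0.937 and 0.939 with Stau1 IP 1 and 3, below the 0.971 with control IP 3. These correlations describe whole arrays across targets, which are not independent. Whether control IP 2 and Stau1 IP 2 were exchanged was not tested, and if they were, each value of 3 arrays against 3 would mix the groups. The arrays numbered 2 are therefore given singly for every member, and each difference is also given without both of them. Without both arrays, the count past the adjusted threshold in limma was 2044 of 37879 (5.4%), and UPF2 and UPF3B were among them. Of the targets detected on all 6 arrays, 15.5% were counted in that fit, which rests on 2 arrays against 2. STAU1, the gene that was transfected, had a signal of 2499, 3246 and 2758 in control IPs 1 to 3 against 2845, 1857 and 3130 in Stau1 IPs 1 to 3, so the array labelled Stau1 IP 2 had the lowest signal of all 6. The table does not say where in the gene its probes lie, and whether they read the mRNA made from the plasmid was not tested. Of 6 genes that HEK293T cells are known to express, all 6 were detected on every array, as were 4 of 4 mitotic genes. PTPRC, CD3E and ALB, which a kidney line should lack, were detected on no array, while PECAM1 was detected on all 6 arrays at signals of 111 to 144, and COL1A1 on 5.

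UPF2 forms the bridge between UPF1 and the UPF3 proteins. Control IPs 1 to 3 had raw bead signals of 282, 314 and 346, whereas Stau1 IPs 1 to 3 had 175, 156 and 187. All control IP arrays lay above all Stau1 IP arrays, before normalization and after it. Both arrays numbered 2 kept to the side of their label for this mRNA. On the normalized log2 scale, control IP 2 stood at 7.67 beside 7.96 and 8.21 for the other control IPs, and Stau1 IP 2 at 6.83 beside 6.68 and 6.65. The mean was 7.95 ± 0.27 (SD, n = 3) for control IPs, against 6.72 ± 0.10 (SD, n = 3) for Stau1 IPs. The log2 difference was -1.23 (standard error 0.15, 95% confidence interval from -1.59 to -0.86), with an adjusted p = 0.189 from limma. Without both arrays numbered 2 it was -1.42 (95% confidence interval from -1.74 to -1.09) and passed, with an adjusted p = 0.0152 from limma. Of the 9884 targets detected on all 6 arrays, 0.162% lay as low as UPF2 or lower, although UPF2 itself was not among them, since it missed the detection threshold on Stau1 IP 2. The detection p-value of a target read by several probes did not follow its signal on these arrays, so that a bright target could miss the threshold as well.

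UPF3B, the X-linked paralog that binds UPF2, gave a signal of 401, 375 and 472 in control IPs 1 to 3, while Stau1 IPs 1 to 3 had 275, 182 and 287. Here too the groups did not overlap in raw or in normalized values. Control IP 2 was the lowest of the control IPs and Stau1 IP 2 the lowest of the Stau1 IPs, so that both numbered 2 lay below the other arrays of their group. The normalized means were 8.45 ± 0.39 and 7.46 ± 0.17 (log2, SD, n = 3), and the log2 difference was -0.99 (standard error 0.21, 95% confidence interval from -1.52 to -0.47), which had an adjusted p = 0.239 in limma. Without both arrays numbered 2 the difference was -1.12 (adjusted p = 0.0168 from limma). UPF3B was detected on all 6 arrays, and 0.921% of such targets were as low or lower.

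UPF3A, on chromosome 13, had signals that hardly differed apart from a single array. They were 231, 247 and 227 in the control IPs, and 220, 138 and 226 in the Stau1 IPs, with Stau1 IP 2 far below the rest. The highest Stau1 IP array and the lowest control IP array were almost equal in raw signal, and after normalization the groups were only just apart. The log2 difference was -0.55 (standard error 0.22, adjusted p = 0.519 from limma), and -0.42 (adjusted p = 0.107) without both arrays numbered 2. The latter is a difference of normalized values. In signal above background, before normalization, the same arrays lay close together, at 152 and 149 in control IP 1 and 3 and 141 and 140 in Stau1 IP 1 and 3. The Stau1 IPs alone had an SD of 0.41 (log2, n = 3).

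**Figure D1:**
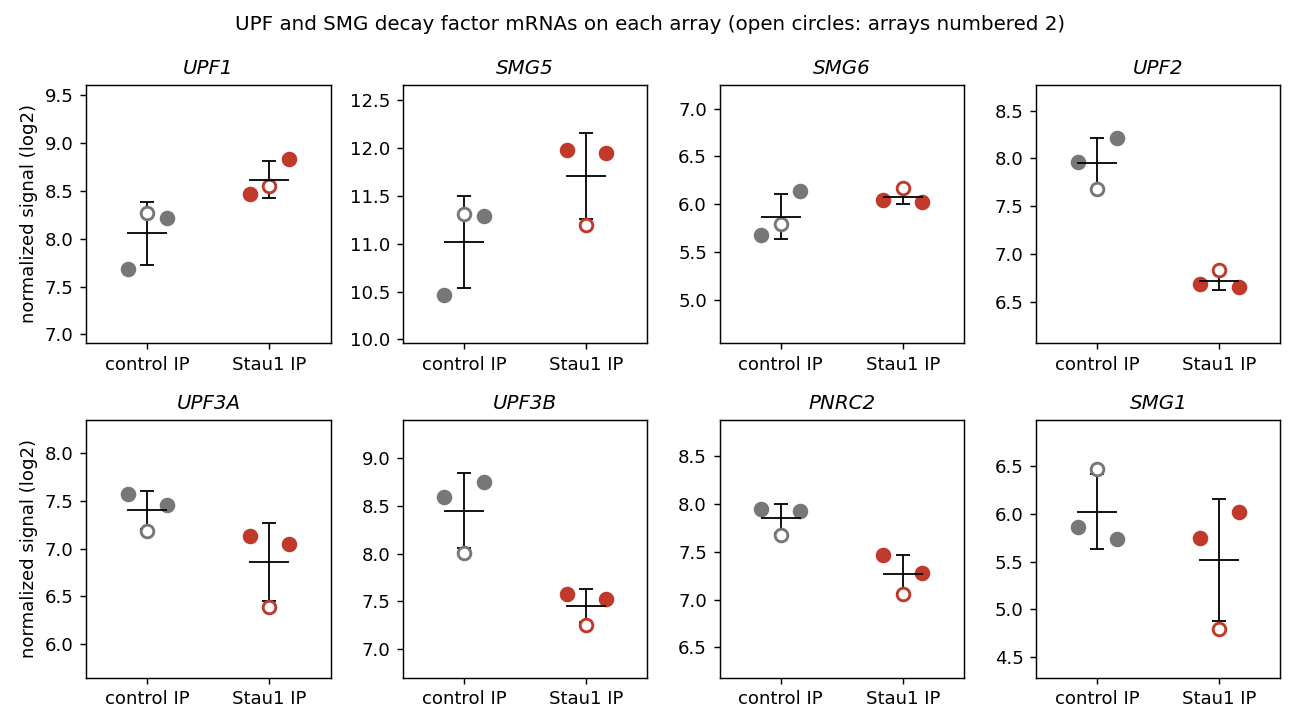
Normalized signal (log2) of the 8 decay factor mRNAs on each array, control IPs in grey and Stau1 IPs in red, with open circles for the arrays numbered 2, and bars for the mean ± SD of 3 arrays. The vertical axes cover different levels but the same width in log2 units. UPF2 and UPF3B lie lower on all Stau1 IP arrays, while for SMG5 the array labelled Stau1 IP 2 falls among the control IPs.

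PNRC2, which joins UPF1 to decapping, gave 281, 314 and 295 in control IPs 1 to 3, against 260, 168 and 253 in Stau1 IPs 1 to 3. The groups did not overlap, and Stau1 IP 2 was again the lowest array. The normalized means were 7.85 ± 0.15 and 7.27 ± 0.20 (log2, SD, n = 3). The log2 difference was -0.58 (standard error 0.14, 95% confidence interval from -0.92 to -0.25), with adjusted p = 0.259 from limma, and leaving out both arrays numbered 2 gave -0.57 (adjusted p = 0.0637), so that the normalized value hardly depended on them. Before normalization it was otherwise. In signal above background, control IP 1 and 3 had 202 and 216 and Stau1 IP 1 and 3 had 181 and 167, whereas Stau1 IP 2 had 78.1. PNRC2 missed the detection threshold on Stau1 IP 3.

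SMG1, the kinase that phosphorylates UPF1, was close to background. Its signal was 117, 178 and 113 in the control IPs, and 120, 96.7 and 143 in the Stau1 IPs, where the negative controls had a mean between 78.4 and 90.2 on the 6 arrays. The highest and the lowest value were those of the arrays numbered 2, control IP 2 and Stau1 IP 2. SMG1 was detected in 2 of the 3 control IPs but in no Stau1 IP, although Stau1 IP 1 and 3 were brighter than control IP 1 and 3. Detection calls of a target read by several probes did not follow its signal, so no minimum fold is drawn from them. The log2 difference was -0.50 (means 6.02 and 5.52, adjusted p = 0.791 from limma). Without both arrays numbered 2 the log2 difference was 0.082, of opposite sign. The array also held 2 targets for SMG1 pseudogenes, LOC440354 and LOC595101, detected on all 6 arrays. Their log2 differences were 0.17 and 0.51 (adjusted p = 0.908 and 0.327 from limma). A further target of chromosome 16 looked up with them, LOC730099, was detected on no array. SMG1 and its pseudogenes are near-identical in sequence, and whether a probe reads more than 1 of them was not tested.

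UPF1, the helicase at the centre of both decay routes, is on chromosome 19. Raw signals were 243, 433 and 347 in control IPs 1 to 3, whereas Stau1 IPs 1 to 3 gave 448, 357 and 606. In raw signal the groups overlapped, with Stau1 IP 2 below control IP 2, and after normalization they no longer did. The normalized values were 7.68, 8.27 and 8.22 in control IPs and 8.47, 8.55 and 8.84 in Stau1 IPs, so that the gap between the groups was smaller than the span of the control IPs. The log2 difference was 0.56 (standard error 0.19, 95% confidence interval from 0.10 to 1.03), with an adjusted p = 0.425 in limma. It was 0.70 without both arrays numbered 2 (adjusted p = 0.184 from limma).

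SMG5, an adaptor that binds phosphorylated UPF1, had the brightest target of the 8. Control IPs 1 to 3 gave 1336, 2846 and 2456, while 3980, 2292 and 4238 were read in Stau1 IPs 1 to 3. Stau1 IP 1 and 3 were the highest of all arrays, and Stau1 IP 2 lay below control IP 2 and 3. The standard error between beads was 2.26% to 3.62% of the signal above background, whereas the coefficient of variation between arrays was 36.6% in control IPs and 31.0% in Stau1 IPs. The differences between arrays were thus much larger than the bead error. The normalized means were 11.02 ± 0.48 and 11.71 ± 0.45 (log2, SD, n = 3), with a log2 difference of 0.69 (standard error 0.32, 95% confidence interval from -0.09 to 1.46) and an adjusted p = 0.590 in limma. Without both arrays numbered 2 it was 1.09 (95% confidence interval from 0.37 to 1.81), or 2.13-fold, which also missed the threshold (adjusted p = 0.108 in limma).

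SMG6, the endonuclease, was dim but detected on all 6 arrays. It gave 111, 136 and 129 in the control IPs and 134, 130 and 143 in the Stau1 IPs, and the groups overlapped. The standard error between beads reached 22.2% of its signal above background, about the size of the coefficient of variation between arrays, which was 22.5% in control IPs. Its log2 difference was 0.21 (95% confidence interval from -0.12 to 0.53), with adjusted p = 0.751 in limma.

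**Figure D2:**
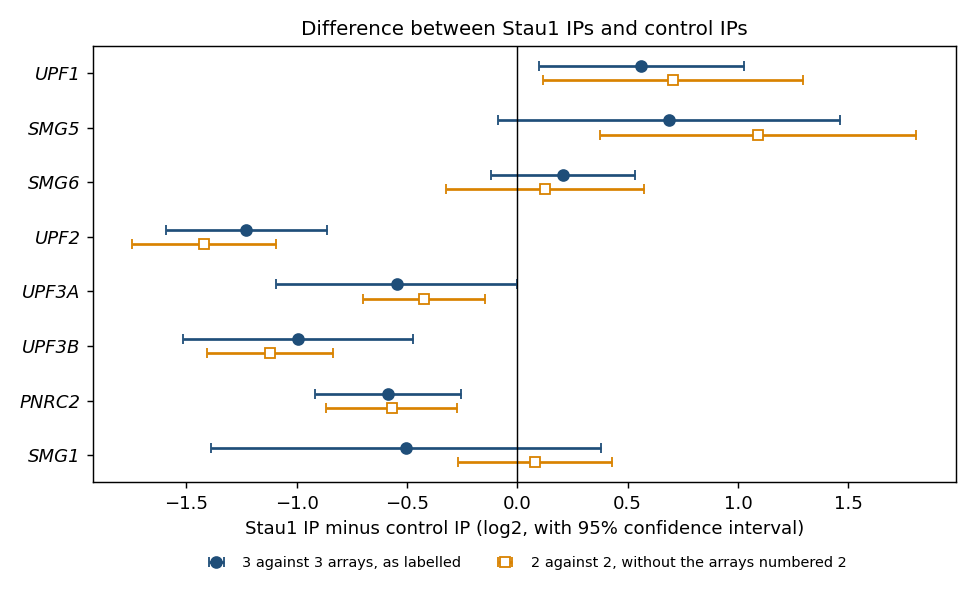
Difference between Stau1 IPs and control IPs on the normalized log2 scale for each decay factor mRNA, with 95% confidence intervals from limma, as labelled (filled, 3 arrays against 3) and without both arrays numbered 2 (open, 2 against 2). The intervals of UPF2, UPF3A, UPF3B and PNRC2 lie below 0 in both, that of UPF3A only just as labelled, the interval of UPF1 lies above 0 in both, and the value of SMG1 changes sign.

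Of the 8 members, 5 had groups that did not overlap after normalization, against 14.5% of all targets. Among targets detected on all 6 arrays the share was 22.8%, with 3 of the 5 members in that set. UPF1 was the 1 member that was higher without overlap (6.71% of all targets), and 4 were lower without overlap (7.8% of all targets). In signal above background, before normalization, 4 did not overlap, namely UPF2, UPF3A, UPF3B and PNRC2, all lower in Stau1 IPs. The share lower without overlap in the same measure was 7.43% of all targets and 11.7% of those detected on all 6 arrays. The exact permutation test of 3 arrays against 3, two-sided, gave p = 0.1 for these 4 and for UPF1, which is the smallest p that the design allows, p = 0.3 for SMG5 and SMG6 and p = 0.5 for SMG1. The study's methods scored enrichment in the Stau1 IP, with a fold threshold of 2.5 and a p threshold of 0.05, on values normalized in another way. With these thresholds on the values used here and the p from limma, 0 members were counted as higher, beside 11 targets (0.029%). The study reported far more enriched transcripts from its own values, so that the counts here do not reproduce its result. In the other direction, which the methods do not score, 0 members were counted beside 17 targets (0.0449%), and UPF2 was counted without both arrays numbered 2 (0.296% of all targets). At the adjusted threshold of limma in that fit, 1189 of all targets (3.14%) were higher, with 0 members among them.

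The median log2 difference of the members was -0.53, beside 0.0006 over all targets and -0.0009 over those detected on all 6 arrays. It was -0.17 without both arrays numbered 2 and -0.23 without Stau1 IP 2 alone. It is a median over members of opposite sign, of which 3 were above 0 and 5 below. All 3 members read by 1 probe (UPF1, SMG5 and SMG6) were higher in Stau1 IPs, and all 5 read by more than 1 probe (UPF2 by at least 4, UPF3A, UPF3B, SMG1 and PNRC2 by at least 2) were lower. With detection on all 6 arrays required, the median log2 difference was 0.02 for 7282 targets read by 1 probe, -0.09 for 1659 read by 2, 0.01 for 668 read by 3 and -0.03 for 274 read by 4 or more. The part of the probe number in the members' signs was not tested. The signal of a target with several probes is a mean over them, so that probes of UPF2 or UPF3B that differ from each other could not be seen.

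**Figure D3:**
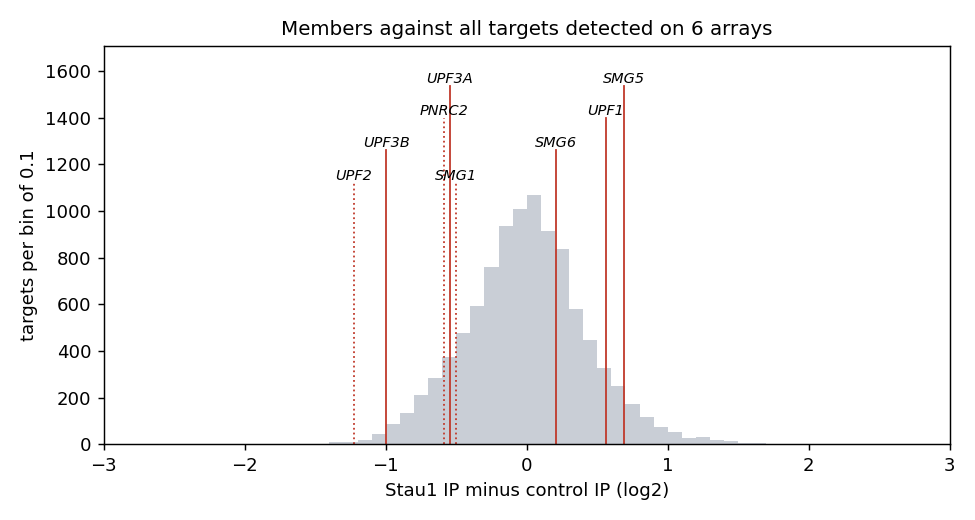
Histogram of the difference between Stau1 IPs and control IPs (log2, bins of 0.1) over the 9884 targets detected on all 6 arrays, with a vertical line for each decay factor mRNA, solid where it was detected on all 6 arrays and dotted where it was not. UPF2 at -1.23 and UPF3B at -0.99 lie in the lower tail, and SMG5 at 0.69 and UPF1 at 0.56 on the upper flank.

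Where the arrays numbered 2 stood also differed among the members. For UPF2, UPF1, PNRC2 and SMG6, on the normalized log2 scale, control IP 2 lay nearer to the mean of control IP 1 and 3 and Stau1 IP 2 nearer to the mean of Stau1 IP 1 and 3, as labelled. UPF3B and UPF3A had both arrays on the Stau1 side, and SMG5 had both on the control side. The sides could differ before normalization. In signal above background, UPF1 had 343 in control IP 2 and 267 in Stau1 IP 2, each nearer to the other group. Control IP 1 and 3 had 164 and 269 there, and Stau1 IP 1 and 3 had 369 and 520. For UPF3A, control IP 2 was the highest of the control IPs in that measure. For SMG1, control IP 2 was above and Stau1 IP 2 below all other arrays. As a background, 618 of the targets detected on all 6 arrays were at least 2-fold higher in Stau1 IP 1 and 3 than in control IP 1 and 3. Both arrays numbered 2 lay on the side of their label for 11.5% of these, and both on the opposite side for 53.9%. Of 415 targets at least 2-fold lower, the shares were 26.5% and 26.7%. UPF3B was among the lower targets and SMG5 among the higher ones, and UPF2, outside the set for its detection on Stau1 IP 2, was lower by more than 2-fold too.

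Pairs of members differed in how alike their arrays were. Measured as the root-mean-square difference of centred log2 values over 6 arrays, PNRC2 and UPF3A were the closest pair at 0.14, then UPF2 and UPF3B at 0.21, and SMG5 and UPF2 the farthest at 1.06. The mean profile of the 5 members detected on all 6 arrays lay between -0.24 and 0.22, and members of opposite sign enter it. Among the targets nearest to it were TRPC4AP at 0.041, CDC45L at 0.045, CCDC21 at 0.049 and GNPDA1 at 0.053, whose log2 differences between the groups lay from 0.027 to 0.052. These 4 targets hardly differed between the groups, and how many others resemble the mean profile was not counted.

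The wider decay machinery was taken as 7 lists with 90 genes, all of which were on the array. None of the 90 passed the adjusted threshold in limma, 16 had an unadjusted p under 0.05 (5 higher and 11 lower), and the median log2 difference was -0.05. Of the 90 genes, 72 were detected on all 6 arrays, and the shares at an unadjusted p under 0.05 were 9.6% of all targets and 22.4% of those detected on all 6 arrays. Without both arrays numbered 2, 10 of the 90 passed the adjusted threshold, 4 as higher and 6 as lower (3.14% and 2.26% of all targets), where 15.5% of the targets detected on all 6 arrays passed in either direction. In each list the detected genes with the highest and the lowest difference are named below.

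Among 11 factors of translation termination and further nonsense-mediated decay proteins, 2 had an unadjusted p under 0.05, both higher. The highest was SMG9, listed as C19orf61, a regulator of the SMG1 kinase, at 0.79 (log2, standard error 0.23, adjusted p = 0.350 from limma). The lowest was ETF1, the release factor that reads stop codons, at -0.26 (adjusted p = 0.700).

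Of 6 genes of the exon junction complex, to which UPF3B binds, 1 was higher and 2 were lower at an unadjusted p under 0.05. RNPS1, a splicing-linked partner of the complex, had 0.53 (standard error 0.08, adjusted p = 0.189 from limma). MAGOHB, a paralog of the core subunit MAGOH, was the lowest at -0.70 (adjusted p = 0.512 from limma), and passed at -1.08 without both arrays numbered 2 (adjusted p = 0.0351). MAGOH itself had -0.70 (adjusted p = 0.431). Of 17 genes for decapping and decay from the 5′ end, 4 had an unadjusted p under 0.05, LSM1, LSM3, LSM5 and LSM14A, and all 4 were lower (log2 differences from -0.67 to -0.49, adjusted p from 0.230 to 0.238 in limma). Among targets detected on all 6 arrays, the share at that threshold was 22.4% in either direction. LSM1, LSM3 and LSM5 encode subunits of a ring that binds deadenylated mRNA ends. LSM2, LSM4, LSM6 and LSM7 of the same ring were not counted, with log2 differences of 0.03, 0.06, -0.76 and -0.41. The lowest value of the list was that of LSM6 at -0.76 (adjusted p = 0.731), and the highest that of EDC4, a decapping scaffold, at 0.46 (adjusted p = 0.664). The median of the list was -0.25. Without both arrays numbered 2, DCP2 passed as higher at 0.79 (adjusted p = 0.0310 from limma). DCPS and PATL1 passed there as lower at -0.73 and -0.68 (adjusted p = 0.0332 and 0.0485 from limma).

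**Figure D4:**
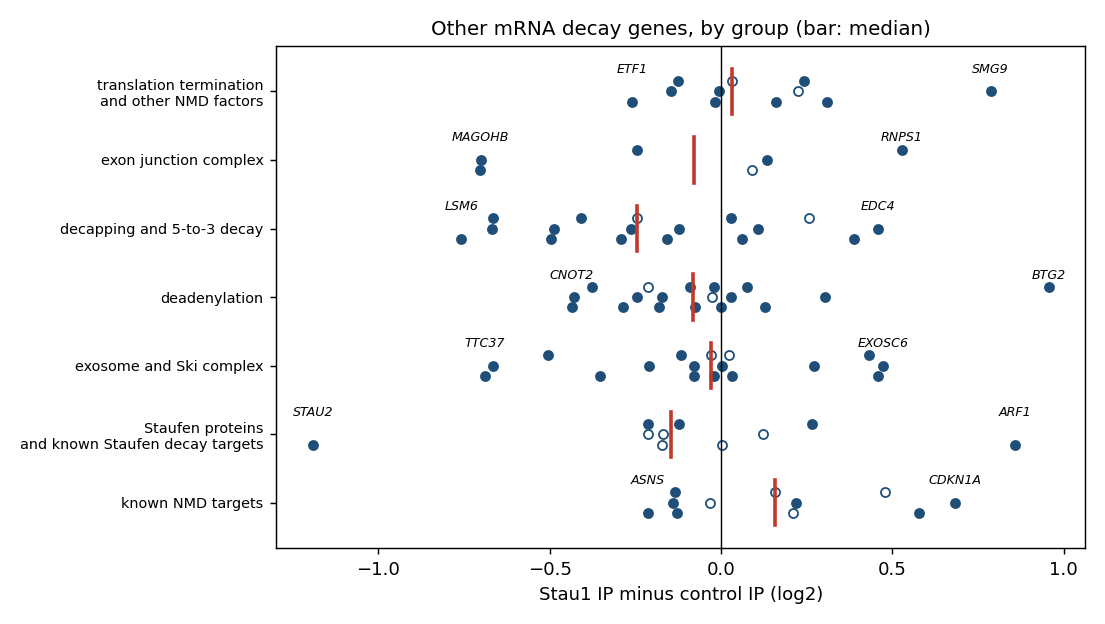
Difference between Stau1 IPs and control IPs (log2, all 6 arrays as labelled) for 90 other genes of mRNA decay in 7 groups, each circle a gene, filled where detected on all 6 arrays, and each red bar the median of its group. The names mark the lowest and highest detected gene of each group, among them STAU2 at -1.19, BTG2 at 0.96 and ARF1 at 0.86.

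The list of the Staufen proteins and known Staufen decay targets held 10 genes, of which 5 were detected on all 6 arrays. At an unadjusted p under 0.05, 1 gene was higher, KLF2 at 0.27 (adjusted p = 0.365 from limma). The 2 counted as lower were STAU2 and IL7R, and IL7R was detected on no array. STAU2, the paralog of STAU1, was the lowest of the 90 genes at -1.19 (log2, standard error 0.22, adjusted p = 0.221 from limma), and -1.30 without both arrays numbered 2 (adjusted p = 0.0748). ARF1, a small GTPase whose mRNA is the classic target of Staufen-mediated decay, had 0.86 (adjusted p = 0.744 from limma). It had 1.75 without both arrays numbered 2 and was the 1 gene of the list that passed there (adjusted p = 0.00805 from limma). STAU1 had -0.17 (adjusted p = 0.869 from limma).

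A lower signal in an IP and a lower amount of the mRNA in the cells it came from cannot be told apart from these arrays. The study also hybridized total RNA of prometaphase cells, which was not analysed here. It reported that the tagged Stau1 changed the transcriptome of these cells little.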

How the data were processed

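The members and gene lists were chosen with earlier results of these data known. RNA of 6 IPs was hybridized on HumanWG-6 BeadChips. Per the file headers, the deposited signal intensity is the mean over beads, without background subtraction or normalization, with the probes of a target combined by BeadStudio. Beside it the authors deposited a detection p-value (under 0.05 was taken as detected), the bead number, and the error between beads as an intensity. Probe numbers were read from the fractions in the mean bead number.

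From these intensities, negative controls were read off the 30922 targets of 1 probe, whose detection p steps by 1 in 759 and follows the signal without exception, with Huber estimates (mean 78.4 to 90.2, SD 9.74 to 10.7). Normexp correction, an offset of 16, quantile normalization and log2 followed, as in neqc of limma. The inference built into limma was set aside after values had been seen, because targets of several probes raised the SD to between 460 and 608, and it is kept as an alternative. The software of the methods was not used here, and a rebuilt chain is an alternative. Groups were compared with lmFit and eBayes (limma 3.58.1, R 4.3.3, MASS 7.3.60.0.1), with no filter, and p-values were adjusted by Benjamini-Hochberg over 37879 targets. Exact permutation tests used single members. Python 3.11.15 with matplotlib 3.10.9 drew the figures. The steps were tested on simulated arrays. Named genes were the members, STAU1, the highest and lowest detected gene of each list, those past the adjusted threshold, and the 5 nearest profiles, of which 1 is not reported here. Further genes were named after their values were seen. They were MAGOH, EXOSC2, EXOSC8, EXOSC9, CNOT4, KLF2, IL7R, DDIT3, DCP2, DCPS, PATL1, the SMG1 pseudogenes, LOC730099 and the LSM genes. The median signal was 87.9 to 102 and 11635 to 13054 targets were detected per array (median of 41 beads). Precision is limited by the number of arrays. Alternatives were other normalizations, offsets, filters, variance priors and tests, the replicate block, and leaving out arrays. Replicate numbers were not used to pair the arrays, as given below.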

Additional observations from a re-analysis of the deposited data

How the results depend on the processing

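The sign of every member stayed the same under all alternatives, except that of SMG1, which turned to 0.082 without both arrays numbered 2. UPF2 and UPF3B had an unadjusted p under 0.05 in all 18 and 19 alternatives and passed the adjusted threshold in 1, without both arrays numbered 2 (-1.42 and -1.12), where 2 members and 2044 targets passed. UPF2 ranged from -1.42 to -0.14 and UPF3B from -1.22 to -0.19, the smallest with limma's own negative controls, an alternative chosen after seeing the data whose larger background SD shrinks dim targets. UPF3A kept an unadjusted p under 0.05 in 5 of 19 alternatives and UPF1 in 13 of 19. The count of members at an unadjusted p under 0.05, 5 as reported, was 2 with median centring, without between-array normalization, with the rebuilt variance stabilization and spline, and among targets detected on all 6 arrays, and 3 by the methods' t-test. With single arrays left out it was 3 to 5, the 3 without Stau1 IP 3. The members' median was -0.17 without both arrays numbered 2, from -0.65 to -0.23 with single arrays left out, -0.11 with the rebuilt chain, 0.21 among targets detected on all 6 arrays, which leave out UPF2, SMG1 and PNRC2, and -0.034 with limma's own negative controls. Targets past the adjusted threshold numbered 2 with an offset of 50 and 2 with limma's own negative controls. With the fold and p thresholds of the study's methods taken in both directions 28 targets were counted, and at an unadjusted p under 0.05 there were 3637 targets and 5 members. List genes at an unadjusted p under 0.05, 16 as reported, numbered 10 by the methods' t-test, 44 without both arrays numbered 2, and 8 to 31 with single arrays left out, 31 without Stau1 IP 2 and 8 without Stau1 IP 3. Where no other cause is named it was not tested. With the replicate number as a block, 5 members kept an unadjusted p under 0.05 and 0 passed the adjusted threshold, with adjusted p = 0.578 for UPF2 from limma. The arrays that share a number deviated in opposite directions (correlations of deviations -0.41, -0.74 and -0.39), and the numbers were not used to pair the arrays. An exchange of the arrays numbered 2, which was not tested, would itself give opposite deviations, so that these values do not settle the pairing. SMG1 lay close to background, and no minimum fold is drawn for it.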

Other observations

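Of 18 genes for deadenylation, BTG2, which binds the CCR4-NOT complex, had the highest log2 difference at 0.96 (standard error 0.34, adjusted p = 0.444 from limma), and 1.53 without both arrays numbered 2 (adjusted p = 0.00978). The lowest was CNOT2, a subunit of that complex, at -0.44 (adjusted p = 0.360 from limma). These were the 2 genes of the list with an unadjusted p under 0.05, and the median was -0.08. CNOT4, at -0.38 on all arrays, passed as lower at -0.86 without both arrays numbered 2 (adjusted p = 0.0226 from limma). Of 17 genes of the exosome, the Ski complex and their helpers, 2 had an unadjusted p under 0.05 and both were lower, EXOSC8 at -0.50 and TTC37, a Ski subunit, at -0.69 (adjusted p = 0.469 and 0.441 from limma). The highest was EXOSC6 at 0.47 (adjusted p = 0.717), and the median was -0.03. EXOSC9 passed as lower at -1.18 without both arrays numbered 2 (adjusted p = 0.0164 from limma). In that fit EXOSC2 passed as higher at 0.65 (adjusted p = 0.0440 from limma).

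Of 11 known targets of nonsense-mediated decay, 0 passed the adjusted threshold in limma and 0 had an unadjusted p under 0.05. Without both arrays numbered 2, DDIT3, which encodes a stress-induced transcription factor, passed as lower at -0.94 (adjusted p = 0.0312 from limma), against -0.14 on all arrays. The median log2 difference of the list was 0.16 over all 11 genes and -0.13 over the 7 detected on all 6 arrays, so that its sign depends on genes that missed detection on some or all arrays. CDKN1A, which encodes the cell cycle inhibitor p21, had the highest value among the detected genes at 0.68 (adjusted p = 0.574 from limma), and ASNS, the asparagine synthetase, the lowest at -0.21 (adjusted p = 0.863).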
